A study of Drosophila melanogaster with 3 samples.

Results

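The 1735 peaks described here are the binding sites of the CG3919 fusion protein on the X chromosome of Drosophila melanogaster. They are every peak of the final reproducible list on the dm6 build whose chromosome is X, of 9569 peaks in all. Peaks of arms 2L (1696), 3L (2184) and 3R (2266) serve as the comparison, 6146 together. Chromatin immunoprecipitation with sequencing (ChIP-seq) was carried out on whole prepupae, with males and females pooled, of a line that stably carries CG3919 with enhanced green fluorescent protein (GFP) at its C terminus. The tagged protein was recovered with an anti-GFP antibody from sonicated chromatin in 3 biological replicates, each set against the same control. The labels give the age as unknown and name no promoter for the transgene. There was 1 group, so no second genotype, treatment or stage could be compared. Every comparison is made between chromosome arms within the same animals. Cell types cannot be told apart in whole animals, nor can the single X of males and the paired X of females in a pool of both sexes.

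The X of flies is present in a single copy in males, and the male-specific lethal (MSL) complex, guided by the noncoding RNAs roX1 and roX2, raises transcription of male X genes. That complex enters the X at sites rich in GA repeats and spreads to active genes. Independent of dosage compensation, the fly X is known for long runs of simple repeats and for a gene content that differs from that of the autosomes. A transcription start site (TSS) is flanked by a core promoter. Housekeeping promoters often carry the DNA replication-related element (DRE) bound by the factor DREF, and promoters of ribosomal protein genes start within a pyrimidine-rich initiator.

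Sequences are given from the RefSeq genome of the dm6 assembly, as 101 bp on the strand of the gene with the nearest TSS. The strongest 4 X peaks, centred on their summits, are shown because they anchor the strength ranking; they hold neither an A tract nor a core DRE.
Ugalt (chrX:2703826-2703926, minus strand): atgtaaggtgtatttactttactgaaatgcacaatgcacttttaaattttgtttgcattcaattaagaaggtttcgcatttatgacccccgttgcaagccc
CG32772 (chrX:4910326-4910426, plus strand): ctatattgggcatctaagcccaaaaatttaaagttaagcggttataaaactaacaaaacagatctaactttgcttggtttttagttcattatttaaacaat
lncRNA:CR44619 (chrX:12751278-12751378, plus strand): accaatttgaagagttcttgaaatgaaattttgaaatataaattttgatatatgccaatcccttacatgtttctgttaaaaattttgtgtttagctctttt
CG3726 (chrX:5918851-5918951, plus strand): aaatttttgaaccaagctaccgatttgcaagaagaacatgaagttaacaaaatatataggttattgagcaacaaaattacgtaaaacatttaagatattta
A run of 8 A on either strand (AAAAAAAA or its complement) was the motif with the largest excess on X over the other arms. Stronger X peaks with it than those shown lay in an intron (rank 78) and in an exon of a noncoding gene (rank 115). The peaks shown are TSS peaks and carry it in capitals within 50 bp of the summit.
Ptpmeg2 (chrX:9646064-9646164, minus strand): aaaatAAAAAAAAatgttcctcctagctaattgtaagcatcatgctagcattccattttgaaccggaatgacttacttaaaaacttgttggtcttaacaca
CG32772 (chrX:4909117-4909217, plus strand): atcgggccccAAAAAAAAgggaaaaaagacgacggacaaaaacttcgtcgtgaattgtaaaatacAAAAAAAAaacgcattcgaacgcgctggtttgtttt
The DRE (TATCGATA, which reads the same on both strands) was also in stronger intronic peaks, of ranks 1534 and 3948. It is in capitals in these TSS peaks.
Rab40 (chrX:12463115-12463215, minus strand): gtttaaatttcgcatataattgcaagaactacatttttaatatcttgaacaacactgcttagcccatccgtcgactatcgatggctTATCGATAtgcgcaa
Dbct (chrX:15085993-15086093, plus strand): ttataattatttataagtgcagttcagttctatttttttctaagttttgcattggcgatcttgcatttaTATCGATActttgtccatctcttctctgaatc
Start sites of the 5 ribosomal protein genes with the strongest peaks, centred on the TSS nearest to the peak, are shown because all 14 such genes of X carried a peak. Capitals mark CTTT beginning within 5 bp of the TSS.
RpS10b (chrX:19597981-19598081, plus strand): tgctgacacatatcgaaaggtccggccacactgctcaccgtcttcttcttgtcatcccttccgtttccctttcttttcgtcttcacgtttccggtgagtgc
RpS28b (chrX:9554573-9554673, plus strand): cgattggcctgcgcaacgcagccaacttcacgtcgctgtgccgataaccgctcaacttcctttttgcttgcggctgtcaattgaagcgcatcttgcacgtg
RpS5a (chrX:17148214-17148314, minus strand): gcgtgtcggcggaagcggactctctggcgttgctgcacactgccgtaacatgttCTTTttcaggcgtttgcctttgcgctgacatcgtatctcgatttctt
RpL22 (chrX:765080-765180, minus strand): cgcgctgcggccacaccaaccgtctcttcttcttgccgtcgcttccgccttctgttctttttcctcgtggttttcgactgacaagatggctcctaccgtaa
RpS19a (chrX:16637844-16637944, plus strand): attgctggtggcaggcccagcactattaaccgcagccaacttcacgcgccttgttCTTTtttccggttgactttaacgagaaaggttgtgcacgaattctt

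The final list is exactly the strongest 9569 of 30000 pooled candidates, and each replicate also has 30000 candidates. Replicate values below use the strongest 9569 candidates of each replicate. Read depth is unknown from peak lists, and neither the peak caller nor the aligner is given in the sources used here. Candidates and peaks were ranked within a list by the authors' deposited signal, where rank 1 is the strongest. The rank of a peak in a replicate is that of the strongest of its 30000 candidates to overlap the peak. On X 1270 of 1735 peaks (73.2%) overlapped a strongest-list candidate in all 3 replicates, beside 72.7% on 2L, 3L and 3R. Of the pooled X candidates 31.1% (1735 of 5580) were in the final list, beside 32.1% on the other arms. As that list is a cut by pooled rank, these shares do not measure agreement between replicates.

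The X carried a like number of peaks per megabase as the other arms. Its density was 73.7 peaks per Mb, and that of the other arms together was 73.4, with 72.1 on 2L, 77.7 on 3L and 70.6 on 3R. Replicates 1, 2 and 3 gave 76.7, 72.5 and 69.4 candidates per Mb on X. The same replicates gave 73.1, 73.3 and 74.2 on the other arms. X was higher in replicate 1 and lower in replicates 2 and 3, so the ranges overlap. The difference averaged −0.704 ± 4.198 per Mb (SD, n = 3; two-sided exact sign-flip permutation p = 0.75, where 3 replicates allow no p below 0.25). Outside 1 Mb bins with fewer than 20 protein-coding genes, a condition added after the data were seen, X held 75.3 peaks per Mb and the other arms 83.0.

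X peaks lay within introns more often, and between genes less often, than peaks of the other arms. Each summit was given 1 location class, in the order TSS window (within 500 bp of any annotated TSS), coding exon, untranslated region (UTR), other exon, intron and intergenic. Intron here means any part of an annotated gene outside exons, noncoding genes included. Whether the intronic and intergenic shares hold with protein-coding genes alone was not tested. On X 915 summits (52.7%) were intronic and 168 (9.68%) intergenic. On the other arms 40.2% were intronic and 21.9% intergenic. In replicates 1, 2 and 3 the intronic share was 52.6%, 49.2% and 52.7% on X against 41.3%, 38.2% and 39.1% on the other arms. The intergenic share was 10.1%, 8.79% and 9.31% on X against 23.6%, 20.6% and 20.8%. For both classes every X value lay outside the range of the other arms. The intronic difference was 12.6 percentage points (95% Newcombe interval 9.91 to 15.2) and averaged 11.99 ± 1.46 over replicates (SD, n = 3; exact sign-flip permutation p = 0.25, the smallest possible). The intergenic difference was −12.3 points (−13.9 to −10.5), with a replicate mean of −12.3 ± 1.10 (SD, n = 3; exact permutation p = 0.25). These intervals cover counting error only and take neighbouring peaks as independent.

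**Figure D1:**
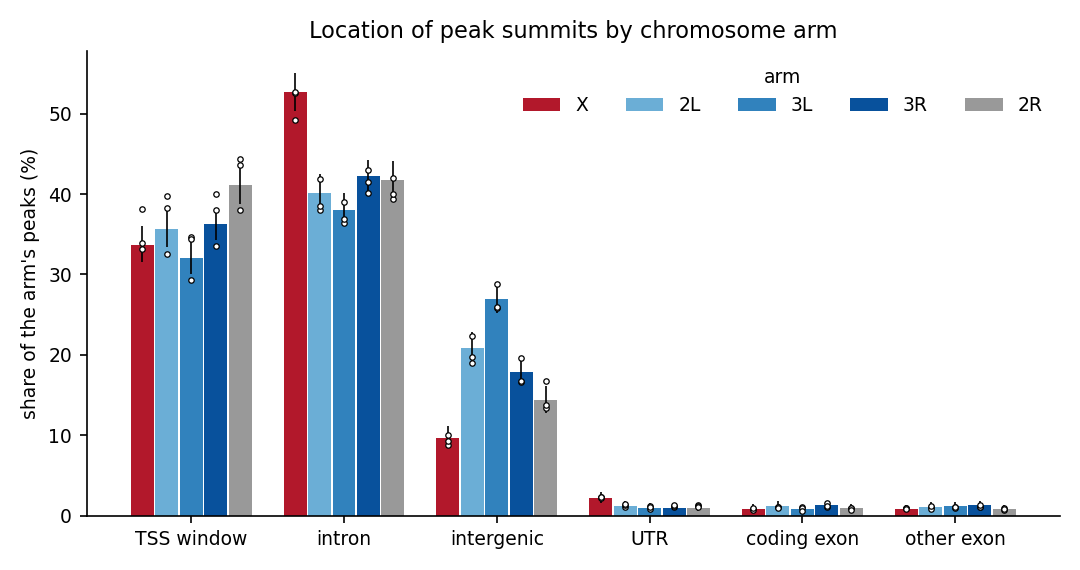
Share of each arm's reproducible peaks (vertical axis, percent) in 6 location classes for X, 2L, 3L, 3R and 2R; error bars are 95% Wilson intervals and open points are the 3 replicates. On X 52.7% of summits were intronic and 9.68% intergenic, beyond the intervals of each other arm.

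The annotation itself differs between the arms, but by less than the peaks did. Introns outside TSS windows made up 43.3% of X and 39.2% of the other arms, and intergenic DNA 22.6% and 28.0%. Per Mb of intron X held 89.7 peaks against 75.3 on the other arms. Per Mb of intergenic DNA it held 31.6 against 57.5, with 52.6 on 2L, 64.9 on 3L and 52.9 on 3R. Thus per Mb of its own territory, intergenic X was occupied less often than that of 2L, 3L or 3R. Arm 2R, which the main comparison left out, had 14.4% intergenic peaks and 32.4 per Mb of intergenic DNA, close to X. X was thus not alone among the arms in its low intergenic density.

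The extra intronic peaks of X were divided between those near and those far from a TSS. Intronic summits within 3000 bp of a TSS were 23.9% on X and 17.6% on the other arms, a difference of 6.28 points in both this class and the deeper one. Intronic summits beyond 3000 bp were 28.8% against 22.5%. Intergenic summits beyond 3000 bp of a TSS were 4.73% on X and 12.2% elsewhere. Beyond 3000 bp of a TSS, X summits were thus more often inside an annotated gene, coding or noncoding. Summits beyond 10000 bp of any TSS were 10.8% on both.

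Peaks in UTRs were few but showed a repeated difference. On X 38 summits (2.19%) lay in a UTR, 25 of them in a 3′ UTR and 13 in a 5′ UTR. On the other arms 65 (1.06%) did, 34 in 3′ and 30 in 5′ UTRs. Replicates gave 2.33%, 2.23% and 2.33% on X and 0.997%, 1.24% and 1.26% elsewhere, with no overlap (difference 1.13 ± 0.178 points, SD, n = 3; exact permutation p = 0.25). UTRs outside TSS windows also covered more of X, 6.65% against 4.68%. The strongest UTR peak, rank 151 (178, 135 and 163 in the replicates), lay in baz, which encodes the polarity protein Bazooka. Others of high rank lay in APC7 (rank 270), which encodes a subunit of the anaphase-promoting complex, and in eas (rank 648), which encodes an ethanolamine kinase. Coding exons held 15 X summits (0.865%) and other exons 14 (0.807%), with overlapping replicate ranges in both.

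TSS windows held a like share of peaks on X, 585 summits (33.7%), and on the other arms, 34.6%. Replicates gave 33.2%, 38.1% and 33.9% on X and 31.8%, 38.0% and 36.8% elsewhere, which overlap. The difference was −0.841 points with an interval of −3.33 to 1.71, and −0.462 ± 2.19 over replicates (SD, n = 3; exact permutation p = 1).

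Where they lay at a TSS, X summits sat farther from it. Their median position was 100 bp upstream of the TSS, against 74 bp upstream on the other arms. In replicate 2 the medians were close, at 63 and 61 bp upstream. On X 37.3% of TSS summits were within 100 bp of the start, against 47.1%, a difference of −9.82 points (Newcombe interval −14.2 to −5.30). Replicates gave 35.7%, 40.0% and 36.3% on X and 43.4%, 48.8% and 48.0% elsewhere. No X value reached the lowest of the other arms (mean difference −9.37 ± 2.08, SD, n = 3; exact permutation p = 0.25, the smallest possible). The arms 2L, 3L and 3R taken singly had 46.7%, 47.5% and 47.0%, and 2R had 47.4%. With TSSs of protein-coding genes alone the difference was −11.2 points. X peaks were more frequent from 200 to 300 bp upstream, with 15.6% of TSS summits against 11.3%, and less frequent in the last 100 bp before the start, with 23.2% against 31.5%. The share lying upstream at all was 73.2% on X and 73.9% elsewhere.

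**Figure D2:**
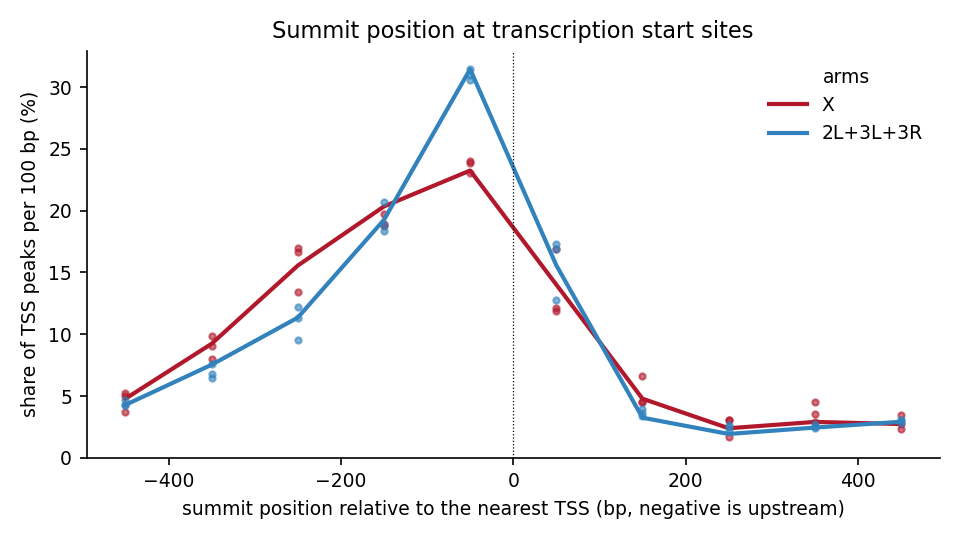
Share of TSS peaks (vertical axis, percent per 100 bp) by summit position relative to the nearest TSS (horizontal axis, bp) for X and for 2L, 3L and 3R together; lines are reproducible peaks and points the 3 replicates. The 100 bp before the start held 23.2% of X summits and 31.5% of the others.

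X peaks were somewhat weaker by rank. The median X peak stood at 52.5% of the list counted from the strongest, against 49.5% for the other arms. Replicates gave 52.4%, 52.0% and 52.9% on X and 49.6%, 49.4% and 49.2% elsewhere, without overlap. The difference was 3.04 ± 0.564 percentage points (SD, n = 3; exact permutation p = 0.25). Without replicate 1 it was 0.567 and without replicate 2 it was 2.06. X held 14 of the strongest 100 peaks (14.0%; Wilson interval 8.53% to 22.1%), 87 of the strongest 500 (17.4%), 17.5% of the strongest 1000, 17.3% of the strongest 5000 and 18.1% of all. The interval was 16.3% to 18.4% for the strongest 5000 and 17.4% to 18.9% for all. These sets are nested and the interval of the strongest 100 is wide, so the shares can neither show nor exclude a trend along the list. Location also varied with strength. Of the strongest 434 X peaks 5.53% were intergenic and 37.3% lay at a TSS, and of the weakest 433 11.3% and 32.6%. The X groups of 434 between them had 12.2% and 9.68% intergenic and 32.3% and 32.7% at a TSS. On X only the strongest group thus stood apart, and no replicate values were computed for these shares. On the other arms the TSS share was 40.9% in the strongest 1537 peaks and 27.8% in the weakest 1536.

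The 12 strongest X peaks included 7 in introns, 3 at a TSS, 2 in exons of noncoding genes and 0 between genes. The strongest of all 9569 lay at chrX:2703649-2704110, 24 bp upstream of Ugalt, a transporter of UDP-galactose into the Golgi, and ranked 1, 1 and 2 in the replicates. The second lay in an intron of CG32772 (rank 14 overall; 16, 13 and 14), a gene with no role given here. The third lay in an exon of lncRNA:Vinr, 539 bp upstream of lncRNA:CR44619 (rank 26; 21, 30 and 40). A second strong peak 504 bp downstream of that noncoding start ranked 40, and another 2659 bp downstream ranked 115. These 3 sites stood in the same order in each replicate.

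CG3726 held the fourth strongest X peak in an intron (rank 33; 34, 31 and 44). At ph-p, which encodes the Polycomb group protein Polyhomeotic proximal, the summit lay 455 bp upstream of a TSS (rank 46; 28, 39 and 53). At Gapdh2, a glycolytic glyceraldehyde-3-phosphate dehydrogenase, it lay 163 bp upstream (rank 51; 76, 26 and 55). The Gapdh2 ranks spread most among these 12 peaks, with an SD of 25.1. The intronic peak of LPCAT, a lysophospholipid acyltransferase, stood at nearly the same place in each list (rank 63; 62, 63 and 64). Intronic peaks of Hr4, a nuclear receptor of the ecdysone cascade, of Tlk, the Tousled-like kinase, and of Zw, glucose-6-phosphate dehydrogenase, ranked 69, 70 and 78. The remaining peak lay in an intron of lncRNA:CR45668 (rank 75). At the median of X strength stood a peak 474 bp upstream of CG3630 (rank 5028). The 25th and 75th percentiles were an intronic peak of mew, an integrin alpha subunit (rank 2507), and a peak 2 bp from a TSS of sn, which encodes the actin bundler fascin (rank 7514).

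Peaks were spread unevenly along X. The 23 full 1 Mb bins held from 8 to 119 peaks, with a median of 77. The densest bin, from 3000001 to 4000000, held 119 peaks (122, 115 and 113 in the replicates) and 55 protein-coding genes. The next, from 6000001 to 7000000, held 117 peaks and 110 genes. These dense bins thus differ in gene number, and a bin with 141 genes held 74 peaks. The sparsest full bin, from 22000001 to 23000000, held 8 peaks (13, 6 and 10) and 46 genes. The longest stretch without a peak ran for 847792 bp, from 21631730 to 22479522. It held 28 protein-coding genes and no pooled candidate. The longest gaps of X in the replicates' strongest lists were 847777, 847902 and 847763 bp, nearly the same length. Whether reads can be placed in that stretch was not tested.

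**Figure D3:**
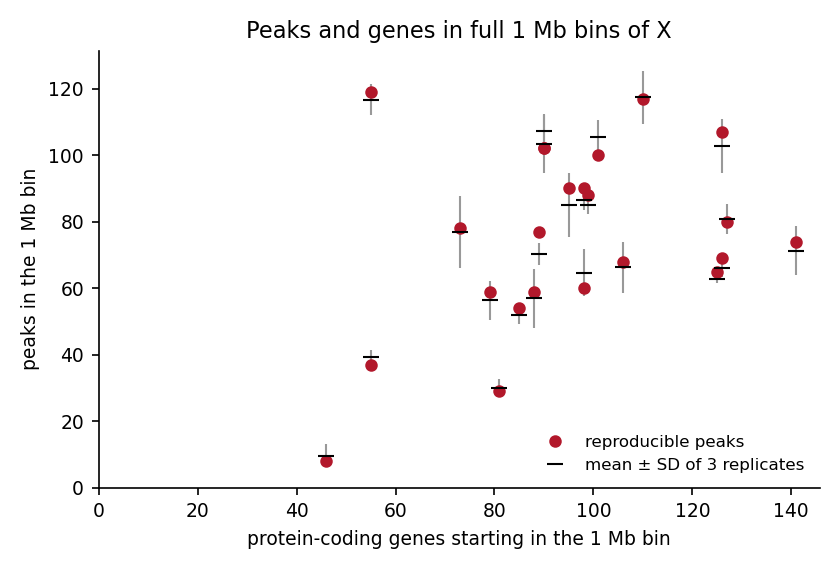
Peaks (vertical axis) against protein-coding genes (horizontal axis) in the 23 full 1 Mb bins of X; red points are reproducible peaks, and dashes with bars are the mean and SD of 3 replicates. The densest bin held 119 peaks with 55 genes, and the bin with most genes, 141, held 74 peaks.

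Neighbouring X summits lay a median of 4181.5 bp apart, against 4134 on 2L, 3402 on 3L and 3993 on 3R. Replicates gave 4209.5, 4248 and 4431 bp on X and 3863, 3738 and 3798 bp on the other arms together, without overlap (difference 497 ± 144 bp, SD, n = 3; exact permutation p = 0.25). Within replicate 1 the 2L median, 4313.5 bp, was above that of X, so the difference does not hold against each arm. Gaps of 1 kb or less made up 16.6% on X, against 18.2%, 19.97% and 17.2% on 2L, 3L and 3R.

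Some long genes held many peaks, counted here over the whole gene span, with overlapping genes each given the same peak. Of 2196 protein-coding X genes 471 held at least 1 summit within their span, 76 held at least 5 and 25 at least 10. The gene kirre, which encodes an adhesion protein of myoblast fusion, held 37 (46, 32 and 33 in the replicates) over 394 kb. Its 0.939 peaks per 10 kb were near the X mean of 0.737. Mnt, which encodes a partner of Max that opposes Myc, held 17 (16, 14 and 18) over 29.9 kb, or 5.69 per 10 kb. Raf, the MAP kinase kinase kinase, held 15 (3.10 per 10 kb), Tlk 20 (2.87 per 10 kb) and Hr4 13 (1.97 per 10 kb). Peak number in these genes therefore did not follow length alone. Long noncoding genes, whose spans overlap protein-coding ones, also held many. The span of lncRNA:CR44357 held 30 (33, 32 and 28) over 239 kb, and that of lncRNA:CR44999 held 29 (25, 27 and 26) over 150 kb. The densest 50 kb windows held 21 peaks each, 1 around Act5C, Shmt and CG3726 (21, 16 and 19 in the replicates) and 1 around brk, a repressor in Dpp signalling, and Atg5 (22, 21 and 19).

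A protein-coding gene was counted as bound where any of its TSSs had a summit within 500 bp. On X 530 of 2196 genes were bound (24.1%), beside 23% (2026 of 8817) on the other arms. Replicates gave 24.95%, 27.0% and 23.0% on X and 21.5%, 24.9% and 25.1% elsewhere, which overlap. The difference was 1.16 points (Newcombe interval −0.801 to 3.18) and 1.19 ± 2.88 over replicates (SD, n = 3; exact permutation p = 0.5). X carried 93.3 protein-coding genes per Mb against 105. Over 11 hand-chosen lists, 62 of 131 listed X genes were bound, and each list is described by its count beside the 24.1% of protein-coding X genes. That share does not cover the noncoding roX1 and roX2 of the dosage compensation list. Listed genes were not matched to all X genes for length or number of TSSs, so a higher share cannot be read as enrichment. Ribosomal protein genes make up 14 of the 62.

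Of the dosage compensation genes on X 1 of 3 was bound. The noncoding RNA gene roX1 had a weak summit 76 bp upstream of a TSS, with rank 8245 overall and 9015, 17885 and 6087 in the replicates. Replicate 2 thus placed it outside its strongest 9569. The nearest summit to roX2 was 1409 bp from its TSS, and that to mof, which encodes the histone H4 acetyltransferase of the MSL complex, was 2812 bp away. Neither was bound in any replicate. With peaks required in both of the other replicates, the count was 0 without replicate 1 and 0 without replicate 3. The listed genes on other arms, msl-1, msl-2, msl-3, mle and Clamp, had no summit at a TSS.

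Among genes that count X chromosomes and set sexual fate, 3 of 6 were bound. Sxl, the master switch of female development, had its strongest TSS summit 400 bp downstream of a start (rank 4739; 5228, 8516 and 3000). The splicing factor gene snf ranked 7216 (7891, 7452 and 8381), and sc, a proneural factor that also acts as an X-counting signal, ranked 8756 (9810, 8443 and 11709). Summits were absent from the TSS windows of sisA, run and upd1, the other counting signals of the list.

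The prepupa is shaped by ecdysone, and 3 of 9 listed X genes of its response and metabolism were bound. They encode the transcription factors usp (rank 3511; 3919, 4290 and 3047), the partner of the ecdysone receptor, Hr4 (rank 7153; 7317, 7137 and 10189) and Broad, gene br (rank 8281; 10742, 7231 and 6751). Hr4 also held the intronic peak of rank 69. The genes phm and Cyp18a1, which make and break down ecdysone, the glue gene Sgs4 and the genes ng1, ng2 and ng3 had no summit at a TSS. None of those 6 was bound in any replicate. With pooled peaks required to overlap the strongest lists of both replicates 1 and 3, the count was 1 of 9.

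Cytosolic ribosomal protein genes were bound throughout, 14 of 14 on X (100%; Wilson interval 78.5% to 100%), and 13, 14 and 14 in the replicates. On 2L, 3L and 3R 36 of 56 were bound (64.3%; 51.2% to 75.5%), with 8 of 19 on 2L, 12 of 14 on 3L and 16 of 23 on 3R. Without genes named as like another, that count was 36 of 53. Those 53 still hold gene copies told apart by a letter. The unbound 3R genes RpS10a, RpS19b and RpS28a share their names with the bound X genes RpS10b, RpS19a and RpS28b. Whether such copies account for the difference between X and the other arms was not tested. The other arms' replicates gave 33, 35 and 40. The near-complete 3L count overlaps X within its interval, 60.1% to 96.0%. RpL36 was the gene missing in replicate 1, where no candidate overlapped its peak. RpS14a and RpS14b are near-identical neighbours, so reads could be shared between them.

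Ribosomal summits also lay close to their starts. Their distance from the TSS ran from 3 to 51 bp with a median of 20, against a median of 149 bp for all 585 X TSS peaks. Their ranks ran from 961 to 4537 with a median of 2603.5, against 4832 for X TSS peaks. RpS10b had the strongest (rank 961; 987, 1082 and 850), 3 bp from its start, then RpS28b (1107; 768, 1661 and 1005) RpS5a (1220; 961, 2755 and 840) and RpL22 (2190; 1778, 3609 and 1827). The letters CTTT began within 5 bp of the TSS, on the gene's strand, at 8 of 14 ribosomal starts and at 198 of 3309 protein-coding X starts (5.98%). This search was added after the sequences were seen. The 14 ribosomal starts are those nearest to a peak, while the 3309 are all annotated protein-coding starts, with or without a peak. No share was computed for other starts with a peak, so the contrast cannot be called particular to ribosomal genes. The match is a description of letters: of the 5 start sites printed above, those of RpS5a and RpS19a have it in this window and those of RpS10b, RpS28b and RpL22 do not.

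Enzymes of central metabolism had 5 of 9 X genes bound. After Gapdh2 (rank 51) came the hexokinase gene Hex-A (rank 409; 620, 323 and 351), with a summit 165 bp upstream. Pfrx, which makes and breaks down fructose 2,6-bisphosphate, ranked 3716 and ras, an IMP dehydrogenase of guanine nucleotide synthesis, 4636. Pgd and Gs2 had their nearest summits 765 and 538 bp from a TSS, just outside the window. Idh3a and the pyrimidine synthesis gene r had none, although replicate 3 placed 1 at r.

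Chromatin and transcription regulators had 7 of 18 bound. After ph-p came Top1, topoisomerase I (rank 998; 946, 1243 and 838), ph-d, the neighbouring copy of ph-p (rank 2477; 2253, 2624 and 2845), and Tlk (rank 4140; 6162, 4603 and 3270). The co-repressor gene Smr held 12 peaks in its span and Myc 4, with none within a TSS window in the reproducible list. Patterning and signalling genes had 10 of 24 bound, led by sgg, the GSK3 kinase of Wnt signalling (rank 190; 204, 233 and 176), dlg1, a septate junction scaffold (rank 3263; 2727, 3364 and 3647), csw, a tyrosine phosphatase of receptor kinase signalling (rank 3746; 3412, 3585 and 4532), and arm, fly beta-catenin (rank 4648; 5197, 4059 and 6057). Both lists held strong peaks beside many genes with none.

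Neuronal genes had 8 of 16 bound. The cyclic AMP phosphodiesterase gene dnc had a summit of rank 199 (171, 206 and 236) and elav, which encodes an RNA-binding protein of neurons, one of rank 269 (222, 295 and 266). Ten-a, a synaptic partner-matching protein, had its summit on a TSS (rank 2306; 2848, 2211 and 2454), and futsch, a microtubule-associated protein, ranked 4520. The ion channel genes para, Sh, cac and eag had none in the reproducible list, although replicate 2 placed 1 at Sh.

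Cytoskeletal and traffic genes had 7 of 13 bound. Each replicate also had 7, but not the same genes. Replicate 2 had Chc and not mys, and replicate 3 had flw and not sn. With a replicate set aside and pooled peaks required in the strongest lists of both others, the count was 5 or 6. The bound genes included sqh, the myosin regulatory light chain (rank 2729; 2767, 2752 and 2789), Moe, the ERM protein moesin (rank 3084; 3043, 2697 and 3440), and Flo2, a membrane raft protein (rank 3880; 3378, 4703 and 4076). Act5C, a cytoplasmic actin, had its strongest TSS summit at rank 2796. Replicate candidates of ranks 160, 239 and 241 overlapped that region, so its replicate ranks cannot be read as those of the same summit. Classic visible mutants had 7 of 18 bound, among them cm, an adaptor subunit of pigment granule transport (rank 1519; 1417, 1651 and 1587), and dy, a zona pellucida domain protein of the wing cuticle (rank 4724; 5314, 3333 and 6976). Between them stood fw (rank 4127; 3661, 2076 and 2548), whose replicate 3 summit lay outside the TSS window, and ec (rank 4544; 6708, 2721 and 6881). Egg shell and yolk genes had 0 of 8 bound in every list, which with so few genes allows a share of up to 32.4% (Wilson interval). These were Cp36, Cp38, Cp7Fa, Cp7Fb, Cp7Fc, Yp1, Yp2 and Yp3, genes of follicle cells and the adult fat body, and none had a pooled candidate at a TSS.

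**Figure D4:**
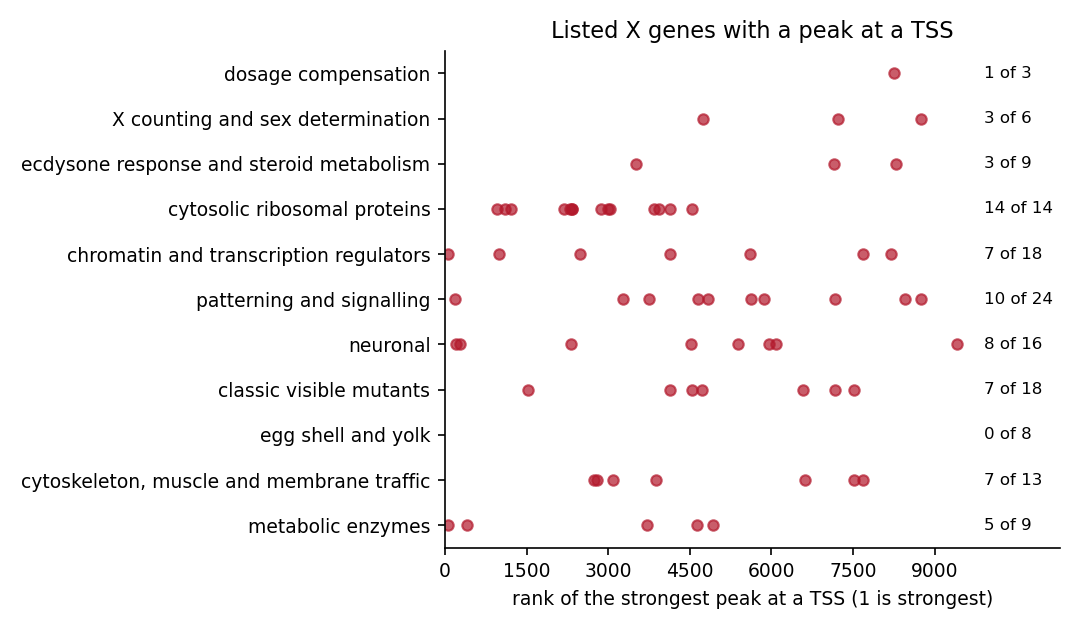
Rank of the strongest TSS peak (horizontal axis, 1 is the strongest of 9569) of each bound X gene in 11 lists; the text at the right gives the genes bound of those listed on X. The 14 ribosomal protein genes fell between ranks 961 and 4537, and no egg shell or yolk gene had a peak.

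X summits had the base composition of those elsewhere. In 101 bp around the summit GC content was 36.3% on both X and the other arms. Replicates gave 36.7%, 36.7% and 36.0% on X and 36.3%, 36.8% and 36.5% elsewhere, overlapping (difference −0.0753 ± 0.437, SD, n = 3; exact permutation p = 0.75). From 400 to 500 bp to the sides GC content was 42.5% on X and 43.6% elsewhere. GC was therefore lower at summits than beside them on X and elsewhere alike. By class X summits had 39.9% at a TSS, 34.0% in introns and 34.8% between genes.

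The A tract was the motif with the largest difference among 16 searched on both strands in 201 bp windows. It was in 412 of 1735 X windows (23.7%) and in 14.8% elsewhere, a difference of 8.99 points (Newcombe interval 6.84 to 11.2). Replicates gave 24.3%, 24.6% and 23.5% on X and 14.9%, 14.9% and 14.7% elsewhere, without overlap (9.32 ± 0.482, SD, n = 3; exact permutation p = 0.25). X windows 500 bp from the summit had it in 20.3%, against 10.99%, and windows tiled along the whole arm in 15.8%, against 9.44%. The X excess was thus present along the arm and not only at peaks. Of the 3 classes examined, the share was 19.3% against 11.6% at TSSs, 26.8% against 17.0% in introns and 20.8% against 16.0% between genes. The Wilson intervals of the intergenic shares overlap, at 15.4% to 27.6% and 14.2% to 18.1%. The largest difference in the other direction was the TATA box (TATAAA), in 30.6% of X windows and 33.0% of the others (−2.44 points, −4.87 to 0.0570). Against 2R alone the sign of that turned, at 0.492 points.

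The core DRE (ATCGAT) was in 159 X windows (9.16%) and in 6.17% elsewhere (3.00 points, 1.58 to 4.56). Replicates gave 9.42%, 7.80% and 8.76% on X and 6.49%, 6.59% and 6.50% elsewhere, without overlap (2.13 ± 0.867, SD, n = 3; exact permutation p = 0.25). Tiled windows had it in 6.36% on X and 5.67% elsewhere. The whole DRE, which contains the core, was in 43 X windows (2.48%) and 1.63% of the others, and in 0.598% and 0.492% of tiled windows. Of the 43, 39 were at a TSS, where 6.67% of X peaks and 3.91% of the others held it. Replicates gave 2.55%, 1.88% and 2.39% for the whole DRE on X and 1.67%, 1.76% and 1.85% elsewhere. The ranges did not overlap, but the shares were close in replicate 2. With 50 bp on each side of the summit the difference was 0.928 points for the core and 0.117 for the whole DRE.

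Repeats associated with X were less marked. The CA repeat (CACACACA) was in 5.94% of X windows and 4.02% of the others (1.92 points, 0.775 to 3.22), and replicates gave 6.04%, 6.98% and 6.12% against 4.00%, 4.61% and 4.11%. With 50 bp on each side the difference was 0.373 points. The repeat was more frequent 500 bp away, at 8.90% on X and 6.34% elsewhere. Tiled windows had it in 5.575% on X and 3.86% elsewhere, so the X excess was present along the arm and not only at peaks. The GA repeat (GAGAGAGA), of the kind found in MSL entry sites, was in 3.17% of X windows and 2.95% of the others, a difference of 0.225 points with an interval of −0.631 to 1.24. The shorter GAGAG, a site of GAGA factor and CLAMP, was in 26.2% and 26.1%. No GA motif thus differed between X and other peaks beyond its counting interval. For the GA repeat, replicates gave 2.71%, 3.75% and 3.25% on X and 2.45%, 3.68% and 2.80% elsewhere. X was higher in each replicate, but the ranges overlap. In tiled windows that repeat was in 1.71% on X and 1.06% elsewhere.

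**Figure D5:**
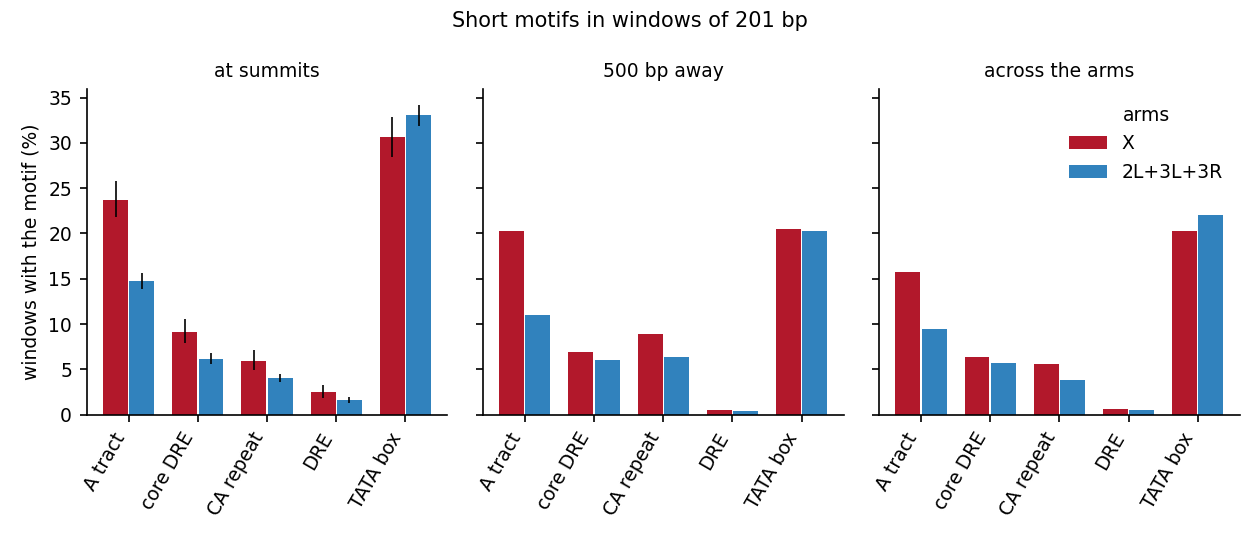
Share of 201 bp windows holding each motif (vertical axis, percent) at summits, 500 bp away and tiled across the arms, for X and for 2L, 3L and 3R together; error bars at summits are 95% Wilson intervals. The A tract was in 23.7% of X summits against 14.8%, and in 15.8% against 9.44% of tiled windows.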

How the data were processed

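Peak lists of 3 biological replicates of 1 group were used. Per the deposited provenance texts, the authors derived each candidate list from a replicate, or all replicates pooled, and 1 control; the final list was thresholded by irreproducible discovery rate. No aligner, peak caller or threshold is given in the sources used here. The deposited signal has no stated scale and served only to rank peaks within a list. The authors' −log10 q-value was not used, since 86.5% of X peaks share 4.23. Fragments came from sonicated chromatin, per the labels.

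Annotation was Ensembl release 115 (BDGP6.54, dm6 coordinates), without transposable elements, and sequence the RefSeq genome of dm6. Positions are summits. Arms were compared over replicate differences with a two-sided exact sign-flip permutation test, whose smallest p with 3 replicates is 0.25, so no difference can pass 0.05. Shares have 95% Wilson or Newcombe intervals for counting error. The members, lists and motifs were chosen with earlier results of these data known. Named were the 12 strongest X peaks, peaks at quartiles of rank, the densest and sparsest bins, the dosage compensation members, up to 4 bound genes per list and the motifs of largest difference; other names were chosen after values were seen. Of 150 listed names 3 were not matched. Alternatives covered windows, strength, replicates, arms, midpoints and dm3. Where a replicate is said to be left out, pooled peaks were kept if they overlapped the strongest lists of both other replicates. Their summits and signal still came from all replicates pooled. Look-ups and intervals were tested on simulated data. Tools were Python 3.11.15 with scipy 1.17.1, pandas 2.3.3, matplotlib 3.10.9 and numpy 2.4.6.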

Additional observations from a re-analysis of the deposited data

How the results depend on the processing

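The intronic, intergenic and UTR differences, the distance of TSS summits, the rank difference and the A tract, CA repeat and DRE differences kept their direction under every alternative run. Over all 30000 candidates, which were not among those alternatives, replicates 1 and 3 gave the rank difference the other sign. The intronic difference ran from 10.5 to 15.04 points, the intergenic from −17.3 to −4.69 (the smallest against 2R alone), and the share of TSS summits within 100 bp from −12.5 to −9.42. With 50 bp on each side of the summit the motif differences were smaller, at 4.22 for the A tract (from 8.99), 0.928 for the core DRE (from 3.00), 0.373 for the CA repeat (from 1.92) and 0.117 for the whole DRE (from 0.851).

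Small differences turned, and the cause was not tested. X density relative to the other arms, 1.00, was 0.952 in the strongest peaks (the upper 4784), 0.907 without gene-poor bins, 0.949 against 3L alone, and 0.968 to 1.04 with a replicate left out. The TSS share difference was 0.673 with protein-coding TSSs only, 1.71 against 3L alone, and −2.05 to 0.291 with a replicate left out. The bound gene difference was −0.0439 with a 250 bp window, −1.61 in the strongest peaks, and −0.814 to 1.92 with a replicate left out. Summit GC was −0.0543 to 0.190 with a replicate left out. The TATA box difference was 0.492 against 2R alone. The ratio of X to other median spacing, 1.12, was 1.05 in the strongest peaks, 1.01 against 2L, 1.23 against 3L, 1.05 against 3R, and 1.14 to 1.17 with a replicate left out. Listed X genes bound fell from 62 to 40 in the strongest peaks, where the ecdysone list had 1 and the dosage compensation list 0. Comparisons with single arms and without gene-poor bins were added after seeing the data. Arms were paired within replicates throughout. No paired analysis between groups was possible because there was 1 group. Read depth is unknown, and 3 replicates limit every test.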
